A study of Homo sapiens with 2 samples.

Results

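Antioxidant, glutathione and NRF2 target genes were described in T47D, an established human luminal A breast cancer cell line, with and without a hairpin against RON, the receptor tyrosine kinase encoded by MST1R. The 44 genes were chosen by name, with earlier results of these data known. They cover the NRF2 regulators, cytoprotective enzymes, glutathione and its enzymes, the thioredoxin system, peroxiredoxins, superoxide dismutase, catalase, and iron storage and uptake. They are 44 of 25240 genes in the deposited tables. There were 2 libraries: shNT, from cells carrying a non-targeting hairpin and labelled RON-proficient, and shRON, from cells carrying a hairpin directed at RON and labelled a knockdown. All cells were transduced, selected in puromycin at 5 ug/mL and kept at 1 ug/mL, and grown in high-glucose DMEM with 10% serum. The table of the control library is named as wild type although its label gives a hairpin, and the label was followed. Each group is 1 library with 1 hairpin, so no test between conditions was possible and every difference describes these 2 libraries.

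NRF2, encoded by NFE2L2, is a transcription factor that binds antioxidant response elements together with a small MAF protein. KEAP1 holds NRF2 in the cytoplasm and directs it to degradation, and oxidants or electrophiles that modify KEAP1 let NRF2 accumulate, so that much of its control is at the protein level. Its targets make glutathione, reduce thioredoxin, supply NADPH, detoxify quinones and heme, and store iron in ferritin. Ferritin and the transferrin receptor are also controlled by iron through stem loops in their mRNAs that bind iron regulatory proteins.

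The sequences that these proteins read are shown first for the genes whose values follow. The core of the antioxidant response element, TGACNNNGC, was searched on both strands from 250 bases before to 50 bases after the start of each gene, in RefSeq sequences of build GRCh38.p14. Of the 44 genes, 34 had such a sequence, and 7 of these held the core, against 13.6% of all 27305 promoters. The 7 were GCLM, GPX2, GSTM1, GSTO1, GSTP1, ME1 and TXNRD1. The capitals mark the core in examples from the strand on which it reads:
GCLM, chr1:93909448-93909472, plus strand: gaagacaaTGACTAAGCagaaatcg
TXNRD1, chr12:104215672-104215696, plus strand: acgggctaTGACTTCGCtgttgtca
GSTP1, chr11:67583738-67583762, plus strand: cggcgccgTGACTCAGCactggggc
ME1, chr6:83431172-83431196, minus strand: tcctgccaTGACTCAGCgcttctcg
The 10 genes with no entry were MAFK, HMOX1, GSS, GSR, MGST2, TXN2, PRDX1, PRDX6, SOD1 and FTH1. No core was found in the windows of NQO1, GPX4 or FTL, and these windows leave out more distant elements.

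Stem loops of the iron responsive element were searched in GENCODE transcripts on GRCh37, the same build as hg19, the one the files use. The pattern was a loop CAGTGN closed by 5 base pairs, then an unpaired C on the 5′ side, then at least 4 base pairs in the next 5 positions. It was found in 30 of 19869 protein-coding genes (0.151%). FTH1 and FTL, the ferritin heavy and light chains, each held 1 in the 5′ UTR, and TFRC, the transferrin receptor, held 4 in the 3′ UTR. SLC40A1, the iron exporter ferroportin, also held 1 in the 5′ UTR. Capitals mark the loop bound by iron regulatory proteins:
FTH1, chr11:61735047-61735073, minus strand: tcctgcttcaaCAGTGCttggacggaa
FTL, chr19:49468593-49468619, plus strand: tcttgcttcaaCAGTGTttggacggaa
TFRC, chr3:195777851-195777877, minus strand: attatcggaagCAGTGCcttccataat
TFRC, chr3:195777447-195777473, minus strand: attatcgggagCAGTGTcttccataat

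Depth and identity of the libraries bear on every value. The deposited unit was FPKM, fragments per kilobase of transcript, scaled to the size of the library, summed here over the transcripts of a gene. By estimate, shNT held 11727000 fragments and shRON 11309000. MST1R, the target of the hairpin, stood at 12.1 FPKM in shNT against 9.10 FPKM in shRON, a ratio of 0.749 with an approximate 95% counting interval of 0.674 to 0.832 (from the estimated fragments, for counting error only), and 17.7% of measured genes were lower by more. All 9 luminal markers examined were present. Their summed level was 8781 FPKM in shNT against 6516 FPKM in shRON, most of it the keratins KRT8, KRT18 and KRT19. KRT8 alone stood at 3839 and 2634 FPKM. ESR1, PGR and CDH1 were at least 1.5-fold lower, and the keratins were lower by less. GATA3, EPCAM and FOXA1 were not lower, with log2 ratios of 0.27, 0.05 and 0.007. Of 7 immune markers, both libraries list CD3E, LYZ, PTPRC and TYROBP at 0, and the 7 summed to 1.83 and 6.85 FPKM. Most of that sum was CD68, a lysosomal gene of macrophages and other cells, at 1.37 FPKM in shNT against 5.84 FPKM in shRON (log2 ratio 1.53). Fibroblast markers summed to 4.02 and 5.82 FPKM, most of it COL1A1 at 3.95 and 4.27 FPKM, with PDGFRB at 0. COL3A1, at 0.0103 and 1.53 FPKM (log2 ratio 1.32), reached 1 FPKM in shRON only. Endothelial markers summed to 7.22 and 7.66 FPKM, nearly all of it ENG at 7.21 and 7.65 FPKM, with PECAM1 and VWF at 0. The part of these marker shifts in the results below was not tested.

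Of the 44 genes, 39 reached 1 FPKM in at least 1 library. For the log2 ratios below, 1 FPKM was added to each value before shRON was divided by shNT, which makes the ratios of low genes look smaller. A gene was called higher or lower at 1.5-fold on this scale. Where a pair of values is given, shNT comes first, and a value in parentheses after it is the log2 ratio. HMOX1, NQO1, GSR, FTL, FTH1 and GPX4 were higher in the shRON library (6 of 39, 15.4%), where 9.94% of the 12493 measured genes were higher. MGST2, GPX3 and TFRC were lower (3 of 39, 7.69%), where 8.85% of measured genes were lower. HMOX1 alone was higher by 2-fold and MGST2 alone lower by that size (1 of 39 each), where 3.32% of measured genes were higher and 2.17% lower. The other 30 lay within 1.5-fold, 17 of them above 0 and 13 below. In bulk RNA, fewer cells with a transcript and less of it per cell cannot be told apart. The median log2 ratio of the 39 genes was 0.06, and that of all measured genes was 0.04. The 44 genes together held 1.37% of all FPKM in shNT and 1.59% in shRON.

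**Figure D1:**
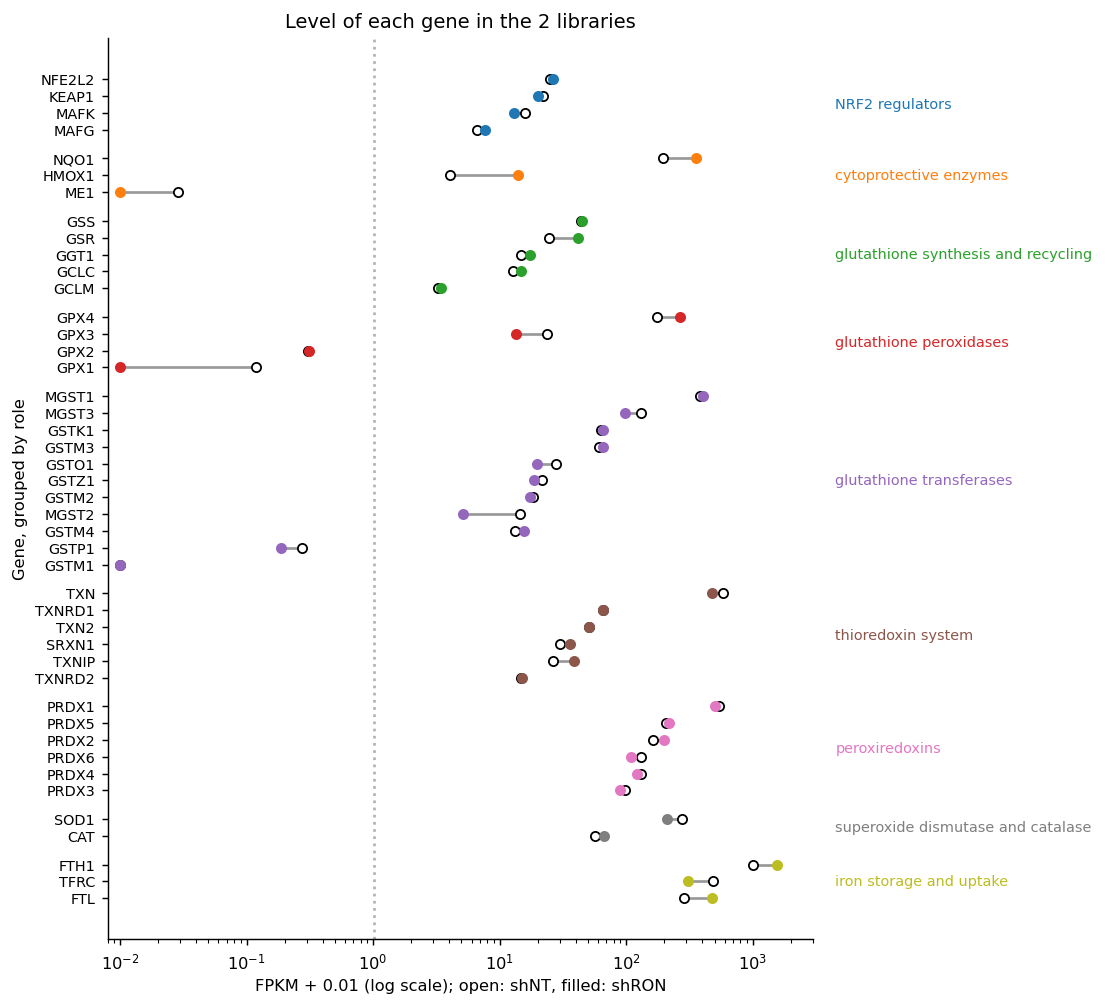
Level of each of the 44 genes in the 2 libraries, as FPKM + 0.01 on a log axis, with shNT as open and shRON as filled circles joined by a line, and a dotted line at the filter of 1 FPKM. FTH1, TXN and PRDX1 have the highest shNT levels, and GSTM1, GPX1, GPX2, GSTP1 and ME1 lie left of the dotted line in both libraries.

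**Figure D2:**
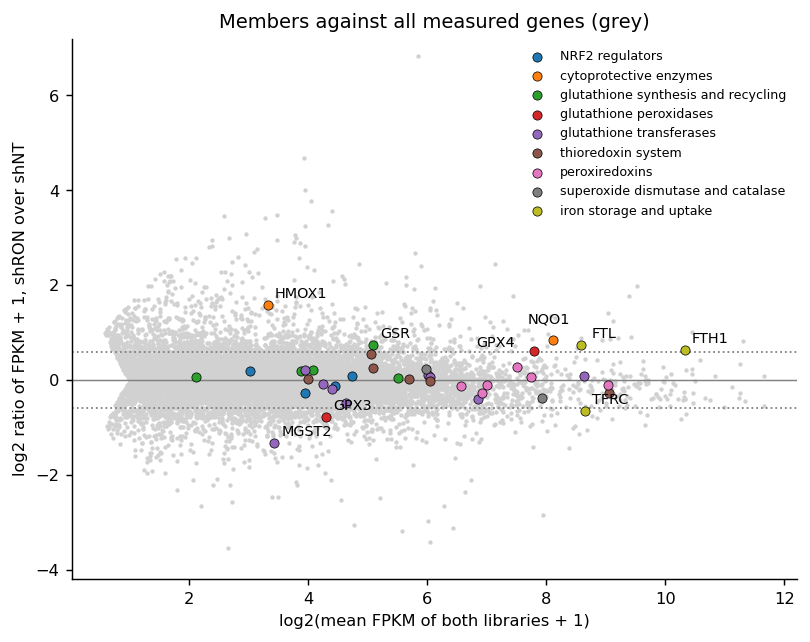
The 39 measured genes, coloured by role, over all 12493 measured genes in grey, as log2 ratio of FPKM + 1 against log2 of the mean FPKM + 1, with dotted lines at 1.5-fold. The 6 higher and 3 lower genes carry their names, and the others lie between the dotted lines.

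The regulators of NRF2 differed little between the libraries. None of the 4 reached 1.5-fold, and their log2 ratios ran from -0.27 to 0.19. NFE2L2 stood at 24.8 FPKM in shNT and at 26.6 FPKM in shRON (log2 ratio 0.09), and the counting interval of its ratio, 0.982 to 1.17, included 1. That log2 ratio was -0.21 with the most abundant transcript only and -0.11 relative to neighbouring genes. KEAP1, its inhibitor, stood at 21.9 and 19.9 FPKM (-0.13). The small MAF genes MAFK and MAFG stood at 15.9 and 13.0 FPKM, and at 6.62 and 7.67.

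The summed NFE2L2 value covers transcripts that differed in opposite directions. The longer main transcript, NM_006164.3, was at 18.3 FPKM in shNT against 15.7 FPKM in shRON, a ratio of 0.857 (counting interval 0.772 to 0.952). NM_001145412.1, whose start lies 1242 bases further into the gene, was at 5.85 and 10.6 FPKM, a ratio of 1.81 (1.54 to 2.13). Its share of NFE2L2 was 23.5% in shNT and 39.9% in shRON. The third transcript stayed under 1 FPKM in both libraries. The transcripts share most of their sequence, so the division of reads between them is less certain than the counting intervals show.

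**Figure D3:**
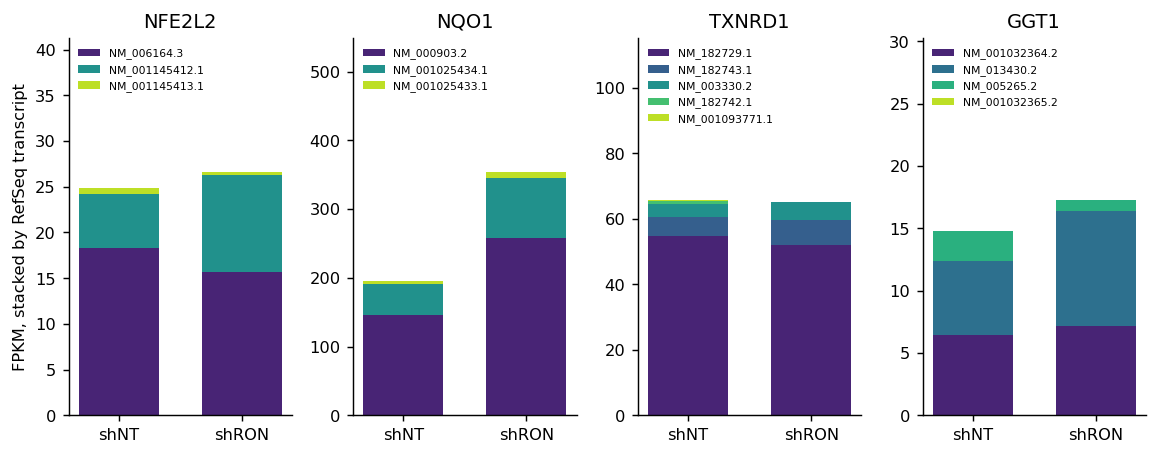
FPKM of each RefSeq transcript of NFE2L2, NQO1, TXNRD1 and GGT1, stacked to the gene's sum in each library, on a linear axis from 0. The middle segment of NFE2L2 widens from 5.85 to 10.6 FPKM, all segments of NQO1 widen, and the sum of TXNRD1 is at 65.7 and 65.1 FPKM.

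Among the cytoprotective enzymes, both measured genes were higher in the shRON library. HMOX1, heme oxygenase 1, which degrades heme to biliverdin, iron and carbon monoxide, stood at 4.02 FPKM in shNT against 14.0 FPKM in shRON. Its FPKM ratio was 3.48 (counting interval 2.76 to 4.43, from 94 and 321 estimated fragments) and its log2 ratio 1.58, a value that 1.06% of measured genes reached or passed. With a pseudocount of 5 FPKM that log2 ratio was 1.07. HMOX1 lies on chromosome 22 from 35777060 to 35790207 (hg19).

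NQO1, which reduces quinones by transferring both electrons at once, was already abundant in shNT, at 196 FPKM, and stood at 354 FPKM in shRON. The ratio was 1.81 (1.76 to 1.86) and the log2 ratio 0.85. All 3 of its transcripts were higher, with ratios of 1.77 for NM_000903.2, 1.91 for NM_001025434.1 and 2.04 for NM_001025433.1, so their shares moved little. NQO1 lies on chromosome 16 (69743304 to 69760533, hg19) among genes that were lower: the median log2 ratio of the 20 nearest measured genes on each side, its regional median, was -0.38. Relative to that region NQO1 was at 1.23. ME1, malic enzyme, which makes NADPH, was close to 0 in shNT (0.0186 FPKM), and the shRON table lists it at 0.

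Of the glutathione synthesis and recycling genes, GSR alone passed 1.5-fold, and the other 4 had log2 ratios from 0.04 to 0.21. Relative to their regions GCLM and GSS were below 0, at -0.15 and -0.16. GSR, glutathione reductase, which restores glutathione from its oxidised form with NADPH, stood at 24.5 FPKM in shNT against 41.8 FPKM in shRON. Its ratio was 1.70 (1.56 to 1.86) and its log2 ratio 0.75. It lies on chromosome 8 (30536435 to 30585443, hg19), where the regional median was 0.26, and relative to that region it was at 0.49, under 1.5-fold. The rate-limiting ligase of glutathione synthesis has a catalytic chain, GCLC, and a modifier chain, GCLM. GCLC stood at 12.7 and 14.7 FPKM (0.20), and GCLM at 3.25 and 3.45 FPKM (0.07), with a counting interval of 0.841 to 1.34. GSS, which completes glutathione, stood at 43.8 and 45.2 FPKM. GGT1, which breaks down extracellular glutathione, stood at 14.8 and 17.3 FPKM. Within GGT1, NM_013430.2 was at 5.93 and 9.20 FPKM and NM_005265.2 at 2.40 and 0.893 FPKM, and GGT1 has close relatives in the genome, so these values are uncertain.

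The measured glutathione peroxidases went in opposite directions. GPX4, which reduces lipid hydroperoxides in membranes, stood at 174 FPKM in shNT and at 268 FPKM in shRON (a log2 ratio of 0.62, chromosome 19, 1103936 to 1106787, hg19). Its ratio of 1.54 had a counting interval of 1.46 to 1.62, which includes 1.5. GPX3, the secreted peroxidase, stood at 23.9 and 13.4 FPKM, a ratio of 0.562 (0.491 to 0.642) and a log2 ratio of -0.79. It lies on chromosome 5 (150399999 to 150408554, hg19), where the regional median was -0.20. Relative to that region GPX3 was at -0.59, just past 1.5-fold. GPX1, the widespread cytosolic form, was close to 0 in shNT (0.109 FPKM) and the shRON table lists it at 0, and the intestinal form GPX2 was at 0.295 and 0.304 FPKM. GPX4 supplied most peroxidase mRNA of this list, 174 of 198 FPKM in shNT and 268 of 282 in shRON.

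The glutathione transferases, which couple glutathione to electrophiles, were mostly close between the libraries. Of 11 genes, 9 were measured, and their median log2 ratio was -0.08. By 1.5-fold, 0 were higher and 1 was lower, where 9.94% of all measured genes were higher and 8.85% lower. The gene that was lower was MGST2, a microsomal transferase that also makes leukotriene C, at 14.4 FPKM in shNT against 5.17 FPKM in shRON. Its ratio was 0.358 (0.264 to 0.481, from 175 and 62 estimated fragments) and its log2 ratio -1.32, and 0.864% of measured genes were as low or lower. It lies on chromosome 4 from 140586922 to 140625407 (hg19), where the regional median was 0.21, so relative to its region it was at -1.53.

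The related microsomal genes did not share that difference in size. MGST1, the most abundant transferase here, stood at 383 and 406 FPKM (0.08), and MGST3 at 131 and 98.4 FPKM (-0.41). GSTO1 stood at 28.1 and 19.7 FPKM (-0.49, regional median -0.29). GSTK1, GSTZ1, GSTM2, GSTM3 and GSTM4 had log2 ratios from -0.18 to 0.22. GSTP1, often the most abundant transferase of epithelial cells, was at 0.265 FPKM in shNT against 0.179 FPKM in shRON. GSTM1, a gene that many people lack, was listed at 0 in both. The GSTM genes lie side by side on chromosome 1 and resemble one another, so the division of reads among them is uncertain.

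**Figure D4:**
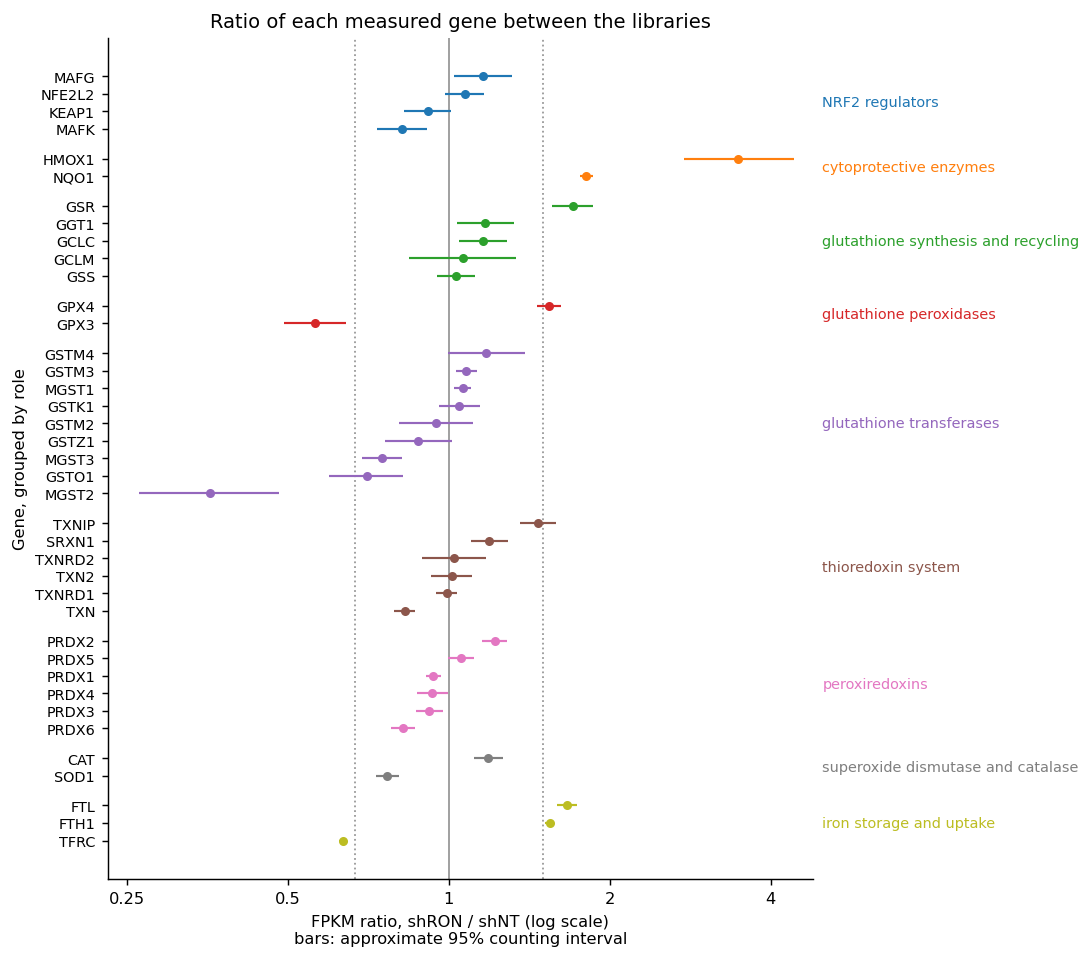
Ratio of FPKM between shRON and shNT, without a pseudocount, for the 39 measured genes by role on a log axis, with bars for approximate 95% counting intervals and dotted lines at 1.5-fold. HMOX1 at 3.48 and MGST2 at 0.358 stand farthest from 1, and the thioredoxin and peroxiredoxin genes other than TXNIP lie between 0.822 and 1.22.

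In the thioredoxin system none of the 6 genes passed 1.5-fold, with log2 ratios from -0.27 to 0.54. TXN, thioredoxin, was among the most abundant genes of the set, at 580.1 FPKM in shNT against 479.5 FPKM in shRON (-0.27). TXNRD1, the selenoenzyme that reduces it and a classical NRF2 target, stood at 65.7 and 65.1 FPKM (-0.01). Its transcripts begin at different places. NM_001093771.1, from 104609559 (hg19), was at 0.248 FPKM in shNT, 0.377% of the gene, and near 0 in shRON. The other transcripts all start at 104680727, and the main one, NM_182729.1, was at 54.7 and 51.9 FPKM. The response element core shown above was searched at a single start of the gene, on another build. The summed value need not come from the promoter that holds it. If that start is the upstream one, nearly all of the summed value comes from transcripts that start elsewhere. The mitochondrial pair TXN2 and TXNRD2 had log2 ratios of 0.02 and 0.03. SRXN1, sulfiredoxin, which repairs overoxidised peroxiredoxins, stood at 30.0 and 35.8 FPKM (0.24).

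TXNIP, which binds and inhibits thioredoxin and is induced by glucose, lay just outside the threshold. It stood at 26.2 FPKM in shNT against 38.5 FPKM in shRON, a ratio of 1.47 (1.36 to 1.59) and a log2 ratio of 0.54. Relative to its regional median of -0.12 it was at 0.66, past 1.5-fold. The ratio of TXN to TXNIP was 22.1 in shNT and 12.4 in shRON. At the other side of the threshold, GPX4 at 0.62 and FTH1 at 0.63 lay just inside it.

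The peroxiredoxins, most of which reduce hydrogen peroxide with electrons from thioredoxin, were abundant and close between the libraries. The 6 genes summed to 1269 FPKM in shNT against 1241 FPKM in shRON, and their log2 ratios ran from -0.28 (PRDX6) to 0.28 (PRDX2). PRDX1 was the most abundant, at 539 and 504.5 FPKM (-0.10), and the mitochondrial PRDX3 the least in both, at 97.7 and 89.8 FPKM. PRDX2 stood at 162 and 198 FPKM, and PRDX6 at 132 and 109. PRDX5, and PRDX4 of the endoplasmic reticulum, had log2 ratios of 0.07 and -0.10. Of the remaining antioxidant enzymes, SOD1, the copper-zinc superoxide dismutase, stood at 274 and 210.5 FPKM (-0.38), and CAT, catalase, at 56.7 and 67.3 FPKM (0.24).

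Iron storage and iron uptake genes stood on opposite sides. FTH1, the ferritin heavy chain with ferroxidase activity, stood at 1008 FPKM in shNT against 1555 FPKM in shRON, the highest level of the 44 genes in each library. Its ratio was 1.54 (1.51 to 1.57) and its log2 ratio 0.63. FTL, the light chain, stood at 286 and 475 FPKM, a ratio of 1.66 (1.60 to 1.73) and a log2 ratio of 0.73. The heavy chain was 3.53 times the light chain in shNT and 3.27 times in shRON, so both chains were higher by similar factors. Regional medians were 0.01 for FTH1 (chromosome 11, 61731757 to 61735132, hg19) and 0.05 for FTL (chromosome 19, 49468566 to 49470136). FTH1 overlaps BEST1, which did not reach the filter, whereas PRDX1 overlaps the measured gene MMACHC and TXNRD1 the measured RPL18AP3, and counting by strand is not stated. FTH1 has 25 numbered pseudogenes and FTL 16 in the GENCODE annotation, and how the authors' counting treated reads shared with them is not stated in the labels or headers.

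TFRC, which takes up transferrin-bound iron, stood at 489 FPKM in shNT against 310.1 FPKM in shRON. Its ratio was 0.634 (0.623 to 0.644) and its log2 ratio -0.66. It lies on chromosome 3 from 195776155 to 195809032 (hg19), with a regional median of -0.12, and relative to its region it was at -0.53, under 1.5-fold. After subtraction of the trend of log2 ratios with expression it was at -0.50, also under that size. Ferritin mRNA, both chains together, was 2.64 times TFRC mRNA in shNT and 6.55 times in shRON.

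Other genes of iron handling, from a list of 16, lay on both sides of 0. Of 15 measured, 6 had log2 ratios above 0 and 9 below, with a median of -0.16. By 1.5-fold, 1 was higher and 1 lower, where 9.94% of measured genes were higher and 8.85% lower. SLC40A1, named here for the stem loop it shares with ferritin, stood at 284 FPKM in shNT against 251 FPKM in shRON (-0.18). The genes that passed, named after their values were seen, were the endosomal ferrireductase gene STEAP3 (7.19 to 13.5 FPKM) and HMOX2, the constitutive heme oxygenase (27.7 to 17.2 FPKM, -0.66, against -0.34 for its region).

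The genes were also divided by whether they are classical NRF2 targets. This list, like the 44 genes, was chosen with earlier results of these data known, so its counts are descriptive only. Of 16 such targets among the 44 genes, 14 were measured, 5 were higher (HMOX1, NQO1, GSR, FTL and FTH1) and 0 lower, with a median log2 ratio of 0.19, where 9.94% of measured genes were higher and 8.85% lower. GSR does not pass 1.5-fold relative to its region, as given above. Of the other 28 genes, 25 were measured, 1 was higher and 3 were lower, with a median of 0.02. The remaining 9 measured targets, GCLC, GCLM, TXN, TXNRD1, SRXN1, PRDX1, PRDX6, MGST1 and MAFG, lay between -0.28 and 0.24. Of the 7 genes whose promoter window held the response element core, 3 reached the filter (GCLM, GSTO1 and TXNRD1). None of these was called higher, where 9.94% of measured genes were, so a count from 3 genes cannot bear on the core. HMOX1, GSR and FTH1, which were called higher, had no promoter sequence to search. TXNRD1 reached the filter as a sum over transcripts with different starts, so its value need not come from the window that held the core.

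NRF2 targets outside the 44 genes included larger ratios. Their list was also chosen with earlier results of these data known, so its counts are descriptive only. Of 24 listed, 21 were measured, 7 were higher and 1 was lower by 1.5-fold, where 9.94% and 8.85% of measured genes were, and their median log2 ratio was 0.18. The aldo-keto reductase genes AKR1C2 (2.77 FPKM in shNT, 35.5 FPKM in shRON, a log2 ratio of 3.28), AKR1C1 (1.96 to 27.0, 3.24) and AKR1C3 (1.66 to 7.26, 1.64) were highest. They are near-identical in sequence, so the division of reads between them is uncertain. ABCC2, an efflux pump for glutathione conjugates, stood at 0.231 and 1.94 FPKM (1.26), and so reached the filter through the shRON library only. SLC7A11, the cystine importer that feeds glutathione synthesis, was named after its values were seen, at 1.02 and 3.28 FPKM (1.08). The gene that was lower was BLVRB, a biliverdin reductase gene that was also named after its values were seen, at 124 and 75.2 FPKM (-0.71).

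Genes of the pentose phosphate pathway, which supplies NADPH, are named here after their values were seen. TKT, transketolase, stood at 134 and 219 FPKM (0.71), and PGD, phosphogluconate dehydrogenase, at 109 and 106 FPKM (-0.04). Of 8 partners of the NRF2 pathway, 2 were higher by 1.5-fold and 0 lower, with a median of 0.21. Of all measured genes, 9.94% were higher and 8.85% lower. Those 2 were MAFF, a small MAF gene (1.46 to 3.23 FPKM, 0.78), and the NRF2 relative NFE2L3 (1.62 to 2.95 FPKM, 0.59), also named after their values were seen. Both were close to the filter of 1 FPKM in shNT. NFE2L3, at 0.588, was barely past the threshold of 0.585.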

How the data were processed

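RNA was measured in 2 libraries, 1 per group, made from TRIZOL-extracted total RNA with the TruSeq RNA kit, per the labels' protocols. The authors deposited FPKM, coverage (a signal, the mean read depth over a transcript) and transcript length (another number, in bases) for 37839 RefSeq transcripts in the Cufflinks layout, per the file headers. The build is hg19 per the submitters' processing notes, which also name DESeq without a role. The sources used here give neither aligner nor strand.

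The tables were joined on transcript identity, and FPKM was summed per gene. Genes whose longest transcript was under 200 bases were left out, and a gene was kept if either library had 1 FPKM or more (12493). All 82 transcripts of the 44 genes had the status OK in both libraries. Fragments were estimated as coverage times length over the bases of 1 fragment (247 in shNT, 245 in shRON), taken as the median product between 150 and 325 bases among long genes with 1 transcript. Counting intervals are 95% Clopper-Pearson intervals on these estimates, cover counting error only, and are approximate. Depth is otherwise unknown, and no count test was run. Calculations used Python 3.11.15, pandas 2.3.3 and scipy 1.17.1 and were tested on simulated data. Alternatives covered pseudocount, filter, transcript choice, scaling, expression trend and region. Every member past 1.5-fold is named with both values, as are the main genes of each role. From the related gene lists (cell type markers apart) the rule names genes past 2-fold, at most 4 a list; genes named beyond it are said to be. Members and lists were chosen with earlier results of these data known.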

Additional observations from a re-analysis of the deposited data

How the results depend on the processing

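Across 10 alternative settings, the 6 higher genes remained higher in 9, and MGST2 and GPX3 remained lower in all 10. After the median of the 20 nearest genes on each side was subtracted, GSR (0.49) and TFRC (-0.53) no longer passed 1.5-fold, TXNIP (0.66) did, and the median log2 ratio of the members was -0.088 instead of 0.064. TFRC (-0.50) also missed it after the running median over mean expression was subtracted. No called gene changed sign. The members' counts stayed at 6 higher and 3 lower with a pseudocount of 5 FPKM and with no filter, while the share of all genes higher was 4.15% and 5.61% instead of 9.94%, and lower 3.73% and 4.83% instead of 8.85%. NFE2L2 was at -0.21 with its most abundant transcript only and at -0.11 relative to its region. The cause of these shifts was not tested. No paired analysis was possible because each group has 1 library. Depth limits HMOX1, GCLM and MGST2 most, and 12 of the 39 counting intervals include a ratio of 1.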

Other observations

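Among 10 other genes of superoxide production and removal, 3 were measured. SOD2, the mitochondrial superoxide dismutase, was at 27.9 FPKM in shNT, against 110.1 FPKM in shRON (1.94 as log2 ratio), beside -0.38 for the cytosolic SOD1. CCS, which loads copper into SOD1, stood at 19.6 and 32.0 FPKM (0.68) and was named after its values were seen. The NADPH oxidase genes NOX1 and NOX4 were listed at 0 in both libraries.

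Of 15 other genes of selenoproteins and selenocysteine insertion, all were measured, and their median log2 ratio was 0.10. By 1.5-fold, 1 was higher and 3 were lower, where 9.94% of all measured genes were higher and 8.85% lower. EEFSEC, the elongation factor for selenocysteine, was at 6.77 FPKM in shNT and at 2.69 FPKM in shRON (-1.07, with a regional median of -0.31). SEPP1, which encodes the secreted selenium carrier and was named after its values were seen, stood at 73.0 and 113.7 FPKM (0.63). Of 17 other thioredoxin-fold, sestrin and methionine sulfoxide reductase genes, 16 were measured. Beside the same shares of all measured genes, 0 of them were higher and 2 lower by 1.5-fold. MSRA, a methionine sulfoxide reductase gene, stood at 5.38 and 1.88 FPKM (-1.15, with a regional median of -0.47). Of 13 measured among 17 other glutathione genes, 1 was higher and 2 were lower by 1.5-fold, beside the same shares, and none reached 2-fold.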
